A study of Mus musculus with 18 samples.

Results

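The comparison described here is the loss of VHL in untreated OPCs (oligodendrocyte progenitor cells) of the mouse, which divide and give rise to the myelinating cells of the central nervous system. Its members are the 6 libraries of untreated cells, 3 from CRISPR-control and 3 from CRISPR-Vhl OPCs, of 18 libraries in the study. All 6 came from OPCs derived from epiblast stem cells and kept in DMEM/F12 with N2max, B27, Fgf2 and Pdgfa, so controls and Vhl cells shared everything the labels name except the CRISPR target. No drug or vehicle was given. The control guide, the part of Vhl that was edited, and whether the edited cells were a clone or a population were not given in the sources used here. Libraries of each group carry the letters A, B and C. No label says that the cultures were separate, and p-values here reflect the spread between these libraries, which can be technical. In a second experiment that is set beside the first below, control and Vhl OPCs of the same kind received medium with DMSO, the solvent of a drug, for 14 hours. Its 3 libraries per group were deposited in another table and normalised separately.

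VHL is the part of a ubiquitin ligase that recognises its substrate. When oxygen is present, the prolyl hydroxylases Egln1, Egln2 and Egln3 mark the alpha subunits of HIF, the hypoxia-inducible factor, and VHL then binds them and sends them to the proteasome. Without VHL the alpha subunits persist in normal oxygen, pair with Arnt, and bind short DNA elements beside genes for glucose uptake, glycolysis, angiogenesis, removal of mitochondria and collagen processing. In OPCs, HIF activity is known chiefly for its link with delayed maturation in hypoxic white matter.

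The 6 libraries held 14594148 to 21160250 estimated counts each, and levels below are CPM (each count divided by the scaled total of its library), which compare libraries for 1 gene and not genes with each other. Sets of 3 values are in the order A, B and C. The single gene CT010467.1 took between 0.257% and 3.72% of a library's counts and mitochondrially encoded genes between 2.29% and 6.15%. The OPC markers Olig1 (2732 to 2962 CPM in controls, 3125 to 3299 in Vhl cells), Olig2, Ptprz1, Pdgfra and Cspg4 were present in every library. Over 10 markers of microglia the summed level was at most 3.31 CPM in any library, and over 12 pluripotency markers it lay between 10.7 and 15 CPM. The libraries did not fall cleanly by genotype. The median absolute log2 difference between libraries over the tested genes was 0.0959 for controls B and C, but 0.275 and 0.257 for control A against them. Vhl B and C differed by 0.284, whereas Vhl A differed from them by 0.452 and 0.556 and from controls B and C by only 0.319 and 0.348. Vhl A was thus nearer to controls B and C than to the other Vhl libraries. Vhl B was nearer to the controls than Vhl A was (0.307, 0.298 and 0.271 from controls A, B and C), and its distance to control C was below that to Vhl C. In the authors' deposited table, a column named as the VHL mean equals, within 0.001 in all 54279 rows, the mean of control B, control C and Vhl A. It equals the mean of the 3 Vhl libraries in 27994 rows. For Vegfa, the deposited VHL mean is 360.4 estimated counts where the 3 Vhl libraries average 5797, and for Sox10 it is 3331 where they average 2516. The deposited control mean equals that of its 3 libraries in every row. Neither mean column was used in any comparison below.

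The DNA element that HIF binds holds the core ACGTG, in other cases GCGTG. The sequences below lie just upstream of the start of 4 genes on which the results turn. They are Mif and Fam162a, the 2 genes that passed the test with all libraries, Bnip3, a mitophagy receptor gene long known as a HIF target, and Ascl2, a transcription factor gene that was near 0 in controls. They are RefSeq sequences of GRCm38.p6, read 5′ to 3′ on the gene's own strand, which is the minus strand for all 4. Capitals mark either core on either strand, so CACGT and CACGC are cores read from the other strand.
Mif: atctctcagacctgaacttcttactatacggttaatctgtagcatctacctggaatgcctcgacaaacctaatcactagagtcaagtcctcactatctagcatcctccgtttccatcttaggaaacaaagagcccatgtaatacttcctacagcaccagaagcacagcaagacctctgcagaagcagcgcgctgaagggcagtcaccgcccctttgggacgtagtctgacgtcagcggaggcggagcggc
Fam162a: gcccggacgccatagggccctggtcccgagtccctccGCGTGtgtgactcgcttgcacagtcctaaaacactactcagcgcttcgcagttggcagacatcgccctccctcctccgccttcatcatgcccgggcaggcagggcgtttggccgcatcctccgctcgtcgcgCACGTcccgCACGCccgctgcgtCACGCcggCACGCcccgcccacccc
Bnip3: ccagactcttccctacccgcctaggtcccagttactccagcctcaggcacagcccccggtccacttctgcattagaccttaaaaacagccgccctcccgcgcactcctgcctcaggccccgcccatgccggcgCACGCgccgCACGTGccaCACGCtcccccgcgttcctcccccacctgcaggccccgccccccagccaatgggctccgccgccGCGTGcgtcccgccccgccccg
Ascl2: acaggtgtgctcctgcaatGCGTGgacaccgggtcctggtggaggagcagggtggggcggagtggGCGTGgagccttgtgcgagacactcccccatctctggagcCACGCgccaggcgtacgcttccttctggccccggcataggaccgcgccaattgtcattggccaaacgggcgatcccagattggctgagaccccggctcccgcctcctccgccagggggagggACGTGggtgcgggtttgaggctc

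These windows are chr10:75860278-75860527 for Mif, chr16:36071595-36071811 for Fam162a, chr7:138909520-138909756 for Bnip3 and chr7:142969265-142969514 for Ascl2. Fam162a and Bnip3 windows were shortened by 33 and 13 bases that an annotated exon covers. Counted on both strands, the Fam162a window held 1 ACGTG and 4 GCGTG, the Bnip3 window 2 and 3, where CACGTG counts on each strand, and the Ascl2 window 1 and 3. The Mif window held neither, which says only that these letters are not in these 250 bases. Over the 250 bases before the first listed start, ACGTG occurred in 13 of 23 matched genes of the HIF target list (56.5%) and in 8 of 19 glycolysis genes (42.1%). It occurred in 22.0% of 9822 tested genes with a RefSeq promoter and in 16.6% of all 32851 promoters in the table. Either core occurred in 19 of the 23 (82.6%), 14 of the 19 (73.7%), 57.5% of tested genes and 38.6% of all promoters. Motif matches are descriptions of sequence, not measured sites.

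Vhl mRNA was 117, 121 and 125 CPM in control against 87.3, 90.2 and 74.1 CPM in Vhl cells. Each Vhl library was therefore below each control, by a similar amount in A, B and C, but the difference of log2 -0.53 ± 0.16 did not pass the test (adjusted p = 0.357, edgeR's quasi-likelihood test). An edit can break the protein and leave the mRNA, so the level checks the labels only in part. In GRCm38 the Vhl gene (GENCODE M21, plus strand) spans chromosome 6 from 113623959 to 113631633. Of 13 tested components of the HIF pathway, 2 were higher in every Vhl library than in every control and 3 were lower, where 7.92% and 7.86% of all 13569 tested genes did so. The 2 were the hydroxylases that are themselves HIF targets. Egln1 was 95.9, 81.2 and 83.7 CPM in control against 201, 865 and 1113 CPM in Vhl cells. Egln3 was 13.1, 18.2 and 20.6 CPM in control against 34.4, 120.3 and 115 CPM in Vhl cells. The third hydroxylase, Egln2, overlapped (8.46, 5.20 and 5.29 CPM in control against 3.25, 12.9 and 15.6 CPM in Vhl cells). The oxygen-sensitive subunit Hif1a was 450.3, 416 and 419 CPM in control against 336, 307 and 339 CPM in Vhl cells (log2 -0.39 ± 0.16, adjusted p = 0.516), so its mRNA was lower, not higher, in all 3 Vhl libraries. Epas1, which encodes the other main alpha subunit, is listed at 0 in all 6 libraries. The partner subunit Arnt2, at 317, 257 and 262 CPM in control against 238, 236 and 244 CPM in Vhl cells, was also lower without overlap, and Arnt overlapped. None of these differences passed with all libraries.

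Only 2 of 13569 tested genes rose and none fell, 0.0147% of genes at an adjusted p under 0.05 in edgeR's quasi-likelihood test, while 1267 (9.34%) had an unadjusted p under 0.05. With the 2 groups as labelled, DESeq2 called 355 and limma 4. Both genes are on the HIF target list of 41 genes, of which 31 could be tested. Mif encodes a cytokine that acts on macrophages and was 56.6, 54.3 and 53.4 CPM in control against 331, 351 and 419.6 CPM in Vhl cells. Its rise was log2 2.75 ± 0.18 (adjusted p = 0.00789). Fam162a, whose product sits in mitochondria, was 15.8, 17.4 and 17.5 CPM in control against 105, 115 and 92.3 CPM in Vhl cells, a rise of log2 2.62 ± 0.17 (adjusted p = 0.00789). In both genes Vhl A stood with B and C, whereas in most other HIF targets it did not. Mif was 2.57, 2.66 and 2.92 above the control mean in Vhl A, B and C on the log2(CPM + 1) scale. Of the 31-base words in the annotated transcripts of Mif, 60.5% also occur on either strand of another gene's transcripts, overlapping antisense genes included, so its counts depend on how shared reads were assigned. For Fam162a the share is 15.7%. Mif lies on chromosome 10 from 75859353 to 75860240 and Fam162a on chromosome 16 from 36043761 to 36071594. The calls of both were lost when a control library or Vhl B was left out.

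The rest of the HIF target list was higher in Vhl cells with a wide spread. Of its 31 tested genes, 22 were higher in every Vhl library than in every control and none was lower. Of all tested genes, 7.92% were higher and 7.86% lower in this way. A positive log2 change was seen in 30 of the 31, against 7512 of all 13569. The median log2 change of the list was 1.69, against 0.05 over all tested genes. P4ha2, Loxl2 and Ankrd37 had control means under 1 CPM and passed the filter only through their Vhl libraries, so they are not separate support. Among secreted factors, the angiogenic Vegfa was 6.60, 8.29 and 6.13 CPM in control against 38.8, 408 and 644 CPM in Vhl cells. Vhl A was above every control and far below Vhl B and C (log2 5.69 ± 0.98, adjusted p = 0.137). Stc2, a secreted glycoprotein, was 9.82, 15.5 and 15.4 CPM in control against 25.2, 107 and 88.7 CPM in Vhl cells. Adm and Epo, further secreted HIF targets, were near 0, with at most 0.185 and 0.0636 CPM in any library.

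Among genes that act on mitochondria, Bnip3, a receptor that directs mitochondria to autophagy, was 17.1, 17.5 and 19.2 CPM in control against 160.1, 514 and 517 CPM in Vhl cells (log2 4.47 ± 0.48, adjusted p = 0.0837). Its relative Bnip3l was 217, 205 and 201 CPM in control against 340.3, 889.5 and 808 CPM in Vhl cells. In each, Vhl A was above the controls and well below Vhl B and C. Higd1a, a regulator of respiration in hypoxia, was 22.8, 33.2 and 27.7 CPM in control against 164, 220.4 and 128 CPM in Vhl cells (log2 2.61 ± 0.26, adjusted p = 0.07), and here Vhl C, not A, was lowest. The shares of words found in other genes were 57% for Bnip3, 23.7% for Bnip3l and 27.2% for Higd1a. The other 12 of 14 genes on the list of mitophagy receptors and autophagy were not higher without overlap. Fundc1, a further receptor of hypoxic mitophagy, was 6.60, 9.62 and 7.96 CPM in control against 7.79, 8.39 and 5.91 CPM in Vhl cells. The kinase gene Pink1, near the filter at 1.79, 1.99 and 2.22 CPM in controls, was 1.48, 0.127 and 0.509 CPM in Vhl cells.

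Collagen-modifying enzymes on the HIF list included genes that were near 0 in controls and clearly expressed in Vhl B and C. The prolyl hydroxylase P4ha2 was 0.143, 0.0553 and 0.391 CPM in control against 2.04, 33.2 and 45.1 CPM in Vhl cells. P4ha1 was 58, 45.8 and 48.8 CPM in control against 67.5, 164 and 146 CPM in Vhl cells. The lysyl hydroxylase Plod2 was 17.2, 22.8 and 17.2 CPM in control against 58.1, 137 and 171 CPM in Vhl cells (log2 2.68 ± 0.40, adjusted p = 0.0945). Plod1 was 15.7, 38.4 and 35.2 CPM in control against 19.2, 33.4 and 5.09 CPM in Vhl cells and overlapped. Loxl2, which crosslinks collagen, was 0, 0.387 and 0 CPM in control against 6.86, 158 and 56 CPM in Vhl cells, and 46.4% of its words occur in another gene. Among regulators of transcription and chromatin, the demethylase Kdm3a was 40.5, 39.3 and 39.3 CPM in control against 53.1, 76.4 and 179 CPM in Vhl cells, with Vhl C highest. The related oxygenase Jmjd6 was 38.5, 49.4 and 43.7 CPM in control against 93.7, 141 and 163 CPM in Vhl cells (adjusted p = 0.0945). The clock repressor Bhlhe40 was 4.37, 2.71 and 3.85 CPM in control against 7.05, 17.3 and 19.97 CPM in Vhl cells. In all 3 genes every Vhl library was above every control. Cited2, which limits HIF by competing for its coactivator, was 22.3, 21.1 and 19.9 CPM in control against 28.6, 43 and 60.7 CPM in Vhl cells. Ankrd37 was 0.43, 0.663 and 0.652 CPM in control against 4.96, 12.7 and 5.91 CPM in Vhl cells. The oxidase Ero1l, which forms disulfide bonds in the endoplasmic reticulum, was 39.2, 38.5 and 37.5 CPM in control against 95.9, 377 and 361 CPM in Vhl cells. Not all members were higher: Ddit4, an inhibitor of mTOR, was 135, 165 and 165 CPM in control against 164, 410.1 and 178 CPM in Vhl cells, high in Vhl B alone, and Ano6, Mxi1, Kdm4b and Plod1 also overlapped.

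**Figure D1:**
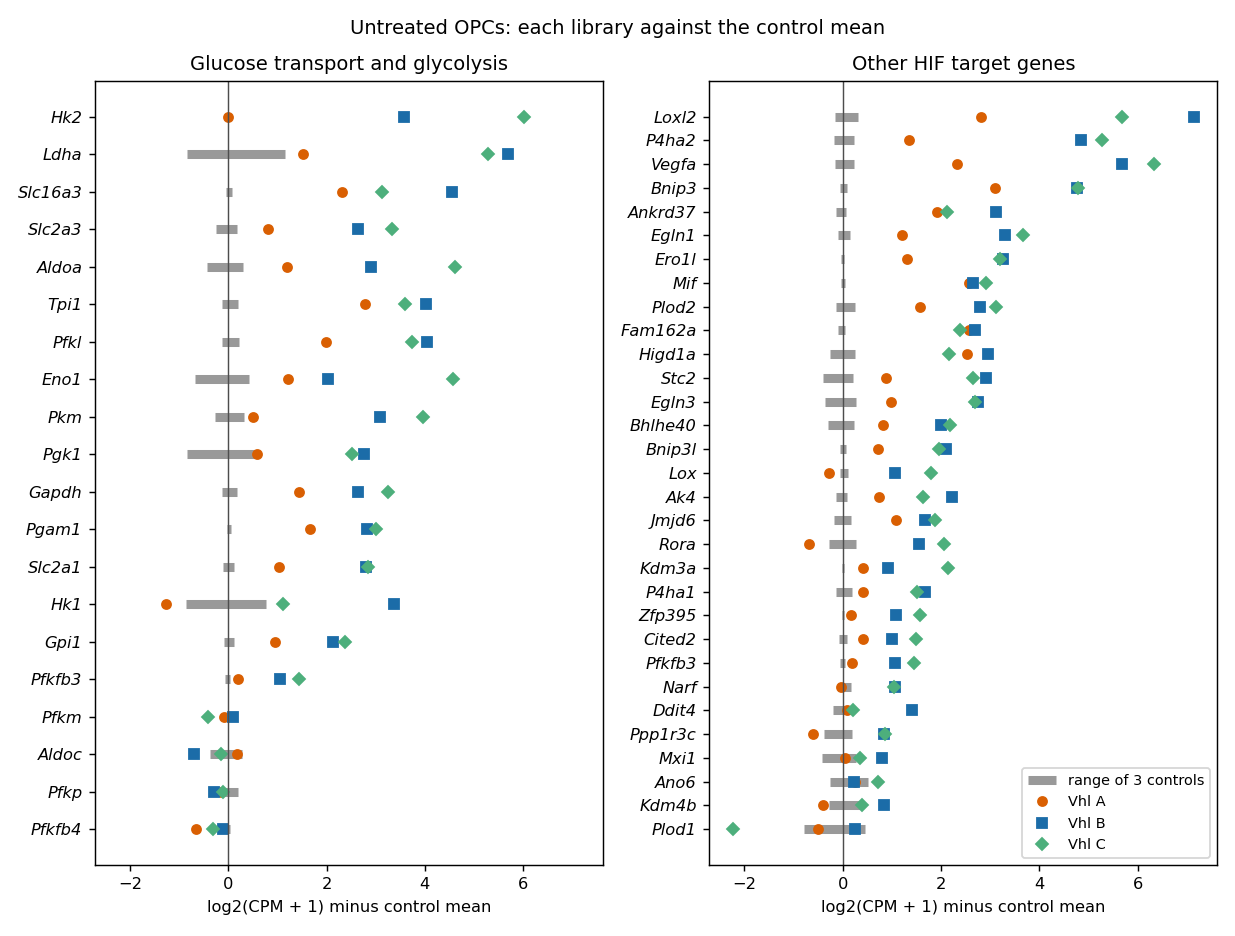
Each tested gene of the glycolysis list (left, 20 genes) and of the other HIF targets (right, 31 genes) is a row; the horizontal axis is log2(CPM + 1) minus the mean of the 3 controls, the grey bar spans the 3 controls, and symbols mark Vhl A, B and C. Most Vhl symbols lie right of the grey bars with Vhl A (circles) nearest to them, except in genes such as Mif and Fam162a, where the 3 symbols coincide.

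The glycolysis list gave the highest median of the lists with at least 5 tested genes, 2.71. Of its 20 tested genes, 14 were higher in every Vhl library than in every control (beside 7.92% of all tested genes). In the same sense 1 was lower and 5 overlapped, and none was called with all libraries. Slc2a3, among the 14, and Hk2, among those that overlapped, had control means under 1 CPM. Both passed the filter only through their Vhl libraries, so they are not separate support. At the entry of the pathway, the glucose transporter Slc2a1 was 55.1, 46.9 and 50.4 CPM in control against 104, 362 and 369.5 CPM in Vhl cells (log2 2.45 ± 0.46, adjusted p = 0.16). Slc2a3 was 0.789, 0.663 and 0.326 CPM in control against 1.76, 8.83 and 15 CPM in Vhl cells. Hexokinase Hk2 had no count in the controls and in Vhl A, and was 10.9 and 64.2 CPM in Vhl B and C. Over all libraries its level was at least 352-fold higher in Vhl cells, taking 3 counts over the control group as the limit that 0 allows. In DMSO it was listed at 0.318, 0 and 0 CPM in controls and at 0 in all 3 Vhl libraries. The isomerase Gpi1 was 438, 394 and 376 CPM in control against 774, 1751 and 2077 CPM in Vhl cells. Of the phosphofructokinases, only Pfkl was higher without overlap. Pfkl was 88.9, 70.8 and 70.01 CPM in control against 305, 1272 and 1034 CPM in Vhl cells (log2 3.51 ± 0.52, adjusted p = 0.0945). Pfkm was 397, 364 and 349.7 CPM in control against 349, 393 and 277 CPM in Vhl cells. Pfkp was 5.88, 3.76 and 5.61 CPM in control against 4.45, 3.94 and 4.58 CPM in Vhl cells. Of the regulatory kinases, Pfkfb3 was higher without overlap (18.6, 18.4 and 17.2 CPM in control against 20.8, 38.8 and 51 CPM in Vhl cells) and Pfkfb4 was lower (7.46, 7.08 and 7.31 CPM in control against 4.22, 6.67 and 5.66 CPM in Vhl cells).

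Lower in the pathway, the triose isomerase Tpi1 was 96.3, 79.98 and 76.7 CPM in control against 584, 1376 and 1023 CPM in Vhl cells (log2 3.56 ± 0.35, adjusted p = 0.07), the smallest p of the list. Gapdh, often used as a reference gene, was 1099.8, 948 and 897 CPM in control against 2667, 6107 and 9274 CPM in Vhl cells. The mutase Pgam1 was 253, 269 and 255 CPM in control against 827, 1832 and 2084 CPM in Vhl cells (log2 2.61 ± 0.36, adjusted p = 0.0945). Pyruvate kinase Pkm was 112, 73.9 and 85.3 CPM in control against 126, 767 and 1393 CPM in Vhl cells, with Vhl A just above the highest control. Of the aldolases, Aldoa was 7.82, 4.92 and 8.81 CPM in control against 17.3, 59 and 194 CPM in Vhl cells. The astrocyte isoform Aldoc was 414, 659 and 577 CPM in control against 607, 332 and 487 CPM in Vhl cells and overlapped. Lactate dehydrogenase Ldha was 5.45, 0.608 and 1.30 CPM in control against 7.23, 148 and 111 CPM in Vhl cells. The lactate exporter Slc16a3 was 1.0, 0.995 and 1.17 CPM in control against 9.23, 47.1 and 16.8 CPM in Vhl cells (adjusted p = 0.0945). Some of these genes are listed at low levels in controls although dividing cells use them: Ldha, Aldoa, Pgk1 (1.58, 0.166 and 2.02 CPM in control against 2.13, 13.1 and 10.9 CPM in Vhl cells) and Eno1 (9.39, 21.2 and 18.5 CPM in control against 37.3, 66.1 and 393 CPM in Vhl cells). Words shared with other genes make up 54.7% of Pgk1, 19.6% of Ldha and 37.1% of Pgam1, and the part of shared reads in these levels was not tested. Summed over the 21 genes of the list, the level was 3039, 2971 and 2817 CPM in control against 6454, 14765 and 18919.5 CPM in Vhl cells.

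Pyruvate dehydrogenase is switched off by the Pdk kinases and on by the Pdp phosphatases. Pdk1 was 44.5, 33.9 and 33.9 CPM in control against 149, 899.8 and 732 CPM in Vhl cells (log2 3.99 ± 0.65, adjusted p = 0.125). Pdk3 was 18, 14.9 and 19.5 CPM in control against 29.2, 94.5 and 113 CPM in Vhl cells. Pdk2 overlapped. The phosphatase genes were lower in every Vhl library. Pdp1 was 27.8, 51.1 and 48.5 CPM in control against 25.6, 17.7 and 15.9 CPM in Vhl cells. Pdp2 was 44.9, 51.9 and 49.1 CPM in control against 18.7, 35.5 and 32.2 CPM in Vhl cells, and neither passed (adjusted p = 0.323 and 0.443). The enzyme's own subunits Pdha1 and Pdhb overlapped. In glycogen metabolism the branching enzyme Gbe1 was 21.1, 21.2 and 19.6 CPM in control against 41.9, 244 and 240.4 CPM in Vhl cells. The glycogen phosphorylase Pygb, which breaks glycogen down, was 779.8, 662 and 687 CPM in control against 331, 320.1 and 287 CPM in Vhl cells, lower and even across the 3 Vhl libraries (log2 -1.18 ± 0.17, adjusted p = 0.0945). Glycogen synthase Gys1 was 1.08, 0.332 and 1.96 CPM in control against 1.07, 8.83 and 14.6 CPM in Vhl cells, high in Vhl B and C only.

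The order of the Vhl libraries was regular in these genes. Of 35 genes of the glycolysis and HIF target lists that were higher without overlap, Vhl A was closest to the controls in 33 and Vhl C in 2, and Vhl B in none. Their median difference from the control mean on the log2(CPM + 1) scale was 1.20 in Vhl A, 2.79 in Vhl B and 2.92 in Vhl C. Over all 390 genes that were higher without overlap by at least 2-fold, Vhl A was closest to the controls in 277, B in 70 and C in 43, and of 174 such lower genes Vhl A was closest in 109. Vhl A was apart from the controls in some genes: its Bnip3 (160.1 CPM), Tpi1 (584 CPM) and Higd1a (164 CPM) were above every control, its Vhl mRNA was as low as in Vhl B, and its Mif and Fam162a were in the range of Vhl B and C or close to it. Within the lists, the gap between Vhl A and the others differed by gene. It was wide in Hk2, Loxl2, Ldha and Vegfa and absent in Mif, Fam162a and Higd1a. A smaller share of edited cells and a weaker response per cell cannot be told apart in bulk RNA.

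**Figure D2:**
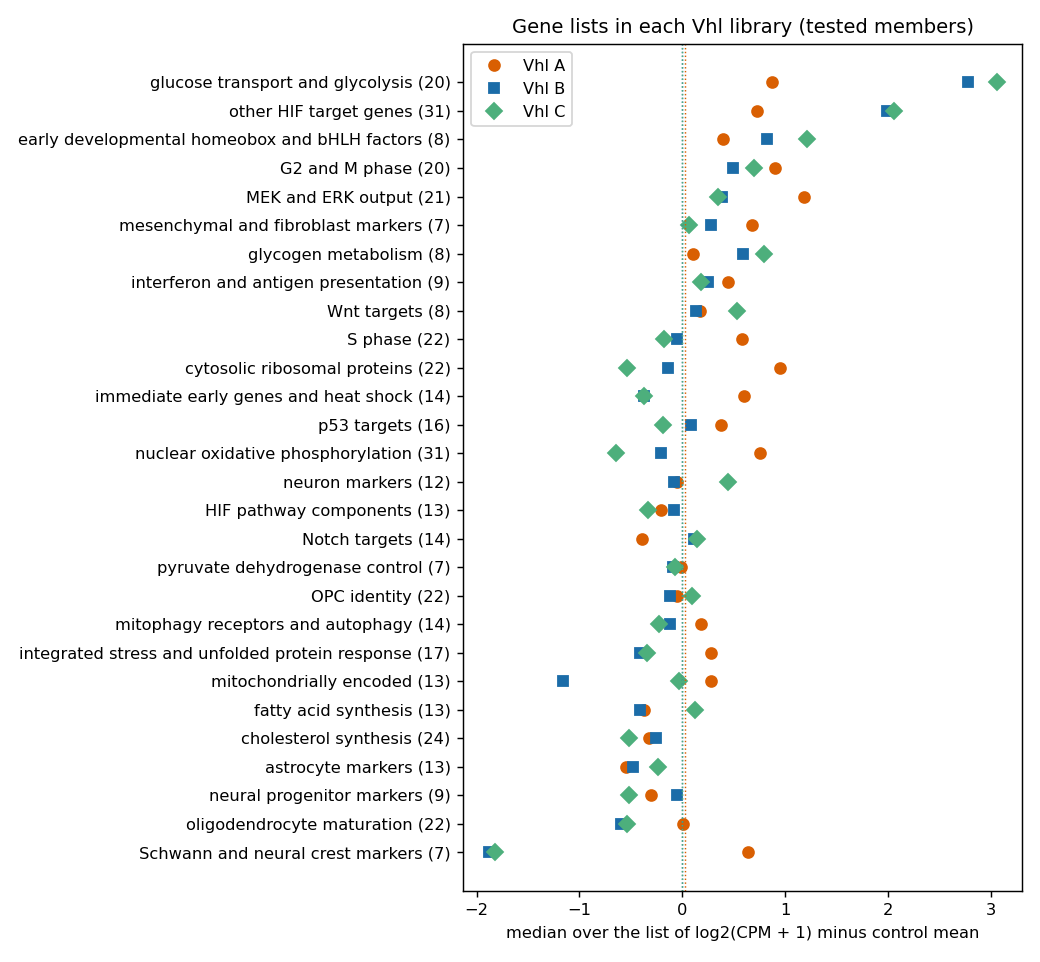
Each row is a gene list with the number of tested genes in parentheses (lists of at least 5); the horizontal axis is the list's median of log2(CPM + 1) minus the control mean, separately for Vhl A, B and C, and dotted lines mark the same over all tested genes. The glycolysis list reads 0.87, 2.78 and 3.06 in Vhl A, B and C and the other HIF targets 0.73, 1.99 and 2.06, while ribosomal and oxidative phosphorylation genes are high in Vhl A and low in Vhl C.

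Among genes whose groups did not overlap and that reached at least 5 CPM in Vhl cells, the 10 with the largest log2 change upward were Gipr, Loxl2, Dlx3, Sncb, P4ha2, Flt1, Jakmip3, Ascl2, Vegfa and Pkp2; none was called with all libraries. Dlx3, a homeobox transcription factor of the placenta and skin, had 2 counts in all controls together and was 4.17, 19.9 and 28 CPM in the Vhl libraries, a ratio of 377 (95% exact counting interval 104 to 3120.0) that covers counting error only (adjusted p = 0.0945). Ascl2, a basic helix-loop-helix factor known from trophoblast and intestinal stem cells, was 0.0717, 0.111 and 0.13 CPM in control against 2.23, 7.63 and 10.6 CPM in Vhl cells (adjusted p = 0.0945). Gipr, the receptor of a gut hormone, had 1 count in controls and was 1.07, 24.1 and 24.1 CPM in Vhl cells. Flt1, a receptor of VEGF, had 2 counts in controls and was 0.788, 6.42 and 8.77 CPM. Sncb, which encodes beta-synuclein, had 1 count in controls and was 1.16, 6.99 and 7.69 CPM. The desmosomal protein gene Pkp2 was 0.502, 0.442 and 1.04 CPM in control against 3.62, 46 and 46.9 CPM in Vhl cells. Jakmip3 was 0.287, 0.0553 and 0.13 CPM in control against 2.92, 14.2 and 17.7 CPM in Vhl cells. All of the 10 but Vegfa had control means under 1 CPM. They passed the filter only through their Vhl libraries, so they are not separate support. In all 10 genes Vhl A was the lowest of the Vhl libraries. That it was above every control in each follows from how the genes were chosen. On the list of early developmental homeobox and basic helix-loop-helix factors, 8 of 16 genes passed the filter. Ascl2, Dlx2 and Dlx3 had control means under 1 CPM and passed it only through their Vhl libraries. Of the 8, and as a description only, 6 were higher without overlap, beside 7.92% of all tested genes. They included Dlx2 (0.502, 0.608 and 1.11 CPM in control against 1.48, 3.18 and 3.75 CPM in Vhl cells), Neurod1 (2.87, 1.11 and 0.652 CPM in control against 5.05, 4.96 and 6.17 CPM in Vhl cells) and Hoxa5 (18.9, 22.7 and 23.1 CPM in control against 25.8, 27.5 and 42.7 CPM in Vhl cells).

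Genes lower in Vhl cells differed by less. The 10 with the largest log2 change downward by the same rule were Mkks, Matn4, Padi2, Tmem132b, Abhd12, Mc5r, Reln, Plekha6, Abca1 and Nipal1, none called with all libraries. Tmem132b, a membrane protein gene, was 157, 170.5 and 186 CPM in control against 47.6, 26 and 20.5 CPM in Vhl cells (log2 -2.45 ± 0.33, adjusted p = 0.0945). Padi2, which turns arginine into citrulline in proteins such as myelin basic protein, was 87.3, 56 and 53.6 CPM in control against 17, 9.09 and 9.60 CPM in Vhl cells (log2 -2.46 ± 0.34, adjusted p = 0.0945). The melanocortin receptor Mc5r was 26.3, 21.5 and 19.1 CPM in control against 6.63, 4.19 and 3.24 CPM in Vhl cells. Abca1, a cholesterol exporter, was 261, 163 and 166 CPM in control against 77.7, 27.9 and 26.5 CPM in Vhl cells. The secreted glycoprotein Reln was 107, 33 and 35.3 CPM in control against 19.2, 8.77 and 10.8 CPM in Vhl cells. Control A was above B and C for Padi2, Abca1, Reln and Matn4 (33.8, 5.53 and 5.29 CPM in control against 3.06, 1.59 and 0.827 CPM in Vhl cells). For Mkks, whose product is a chaperonin-like protein, Vhl A and C are listed at 0 and Vhl B at 1.91 CPM against 9.04, 8.57 and 7.57 CPM in controls, and 28.1% of its words are shared with another gene.

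OPC identity genes had no common direction. Of 22 tested, 2 were higher and 3 lower without overlap, where 7.92% and 7.86% of all tested genes were. The median log2 change was -0.08, or 0.13 without Vhl A and 0.21 without control A. The core factors Olig1 (2962, 2813 and 2732 CPM in control against 3299, 3209.8 and 3125 CPM in Vhl cells) and Olig2 (817, 1021 and 935 CPM in control against 1242, 1162 and 877 CPM in Vhl cells) were at control level or slightly above. Pdgfra, the receptor for the growth factor in the medium, was 258, 189 and 174 CPM in control against 119, 156 and 170.0 CPM in Vhl cells (log2 -0.48 ± 0.23, adjusted p = 0.575). Gpr17, a receptor of committed precursors, was 2986, 768 and 759 CPM in control against 697, 454 and 467 CPM in Vhl cells. Control A was well above both other controls, and every Vhl library was below every control (adjusted p = 0.49). Of 22 tested maturation genes, 1 was higher and 2 lower without overlap, 4 had a positive log2 change, and the median was -0.75. It was -0.14 without control A and -0.11 without both A libraries, where Myrf (log2 0.48), Nfasc (0.22), Bcas1 (0.11) and Cnp (0.11) turned positive. Summed over the list, the level was 2687, 1115 and 1089.9 CPM in control against 1199, 1046 and 957 CPM in Vhl cells, so that control A stood far above the other 5 libraries. The median over the list was 0.01, -0.60 and -0.54 in Vhl A, B and C on the log2(CPM + 1) scale. Myelin basic protein Mbp, like the factor Myrf that drives myelin genes, was highest in control A. Mbp was 48.5, 2.54 and 16 CPM in control against 13.7, 2.16 and 2.61 CPM in Vhl cells. The transcription factor Myrf was 30.2, 1.77 and 3.20 CPM in control against 3.06, 1.78 and 5.15 CPM in Vhl cells. Enpp2 was 62.7, 29.5 and 33.9 CPM in control against 24.7, 25.1 and 24.9 CPM in Vhl cells. Zfp488 was 32.3, 17.2 and 18.1 CPM in control against 14.9, 8.96 and 11 CPM in Vhl cells, and both were lower in every Vhl library. The transcription factor Zfp536 was the 1 that was higher (2.01, 1.11 and 0.196 CPM in control against 2.13, 7.18 and 10.7 CPM in Vhl cells). No gene of either list passed with all libraries.

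Sox10, the factor that oligodendrocyte differentiation requires, shows how the libraries cut across the comparison. It was 527, 88.1 and 87.8 CPM in control against 327, 15.3 and 16 CPM in Vhl cells. Within the A libraries Vhl was lower than control, and within B and C lower still, but Vhl A was above controls B and C, and the test over all 6 gave log2 -0.97 ± 1.29 (adjusted p = 0.886). Without both A libraries, 2 against 2, Sox10 fell (-2.49 on the log2 scale, adjusted p = 0.00667 in edgeR). Without Vhl A alone it did not pass (-3.90, adjusted p = 0.0964 in edgeR). Because Sox10 was high in both A libraries, a fit without them is not separate evidence for its fall. Gjc3, a gap junction gene of the lineage, had the same shape (413, 127 and 122 CPM in control against 200.5, 36 and 23.3 CPM in Vhl cells), as did the neuregulin receptor Erbb3 (54.8, 17.4 and 17.9 CPM in control against 24.4, 1.91 and 4.32 CPM in Vhl cells). Of 9388 genes compared, 85 were over 2-fold higher in A than in the mean of B and C in both groups, and 48 were over 2-fold lower. No matching count is given for B or C, so whether these numbers are particular to A was not tested. The 6 most so were Neu4 (12.8 times in controls and 15.6 times in Vhl cells), Luzp2 (11 times in controls and 42.7 times in Vhl cells), Capn6, Tspan4, Gfap and Csmd3. Luzp2, a gene of the OPC list, was 182, 17.5 and 15.5 CPM in control against 78.8, 1.72 and 1.97 CPM in Vhl cells. Neu4, a sialidase of the lineage, was 62.2, 4.53 and 5.22 CPM in control against 16.9, 1.08 and 1.08 CPM in Vhl cells. The lowest ratios in A were those of Rxra, Loxl2, Zkscan1, Gtf2a1, Herc2 and Actc1. They rest on low levels in controls, and control A is listed at 0 for the first 4 of these. Control C is also at 0 for Loxl2, and Rxra was 0, 1.49 and 0.0652 CPM in controls. For Loxl2 and Rxra a low level particular to control A therefore cannot be shown. Gtf2a1 was 0, 2.43 and 2.87 CPM in control against 2.04, 6.17 and 31.2 CPM in Vhl cells. Zkscan1 was 0, 1.22 and 6.46 CPM in control against 3.99, 23.5 and 66.5 CPM in Vhl cells. Sox9, a factor shared with astrocytes, was also lower in both A libraries (236, 494 and 486 CPM in control against 238, 772 and 987 CPM in Vhl cells). Over all genes, libraries of the same letter did not deviate from their group means together. Whether the A libraries share anything besides the letter was not given in the sources used here.

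**Figure D3:**
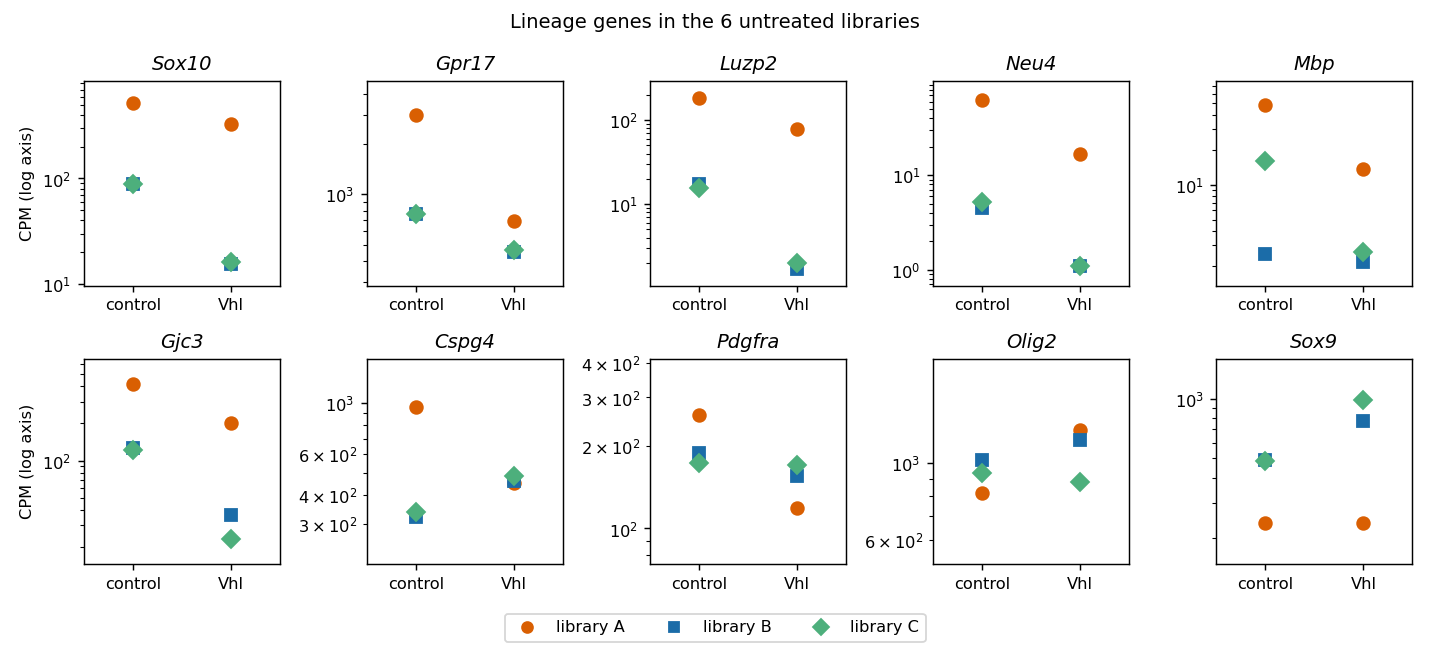
Each panel is 1 gene, with CPM on a log axis and the control and Vhl libraries A (circles), B (squares) and C (diamonds) as single points. Sox10, Luzp2, Neu4 and Gjc3 are high in both A libraries and lower in Vhl than in control within each letter, whereas Olig2 is higher in Vhl than in control for A and B and lower for C.

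Markers of other cell types overlapped between genotypes for most genes of most lists. Of 9 tested neural progenitor markers only 4 overlapped, 2 were higher and 3 were lower. Over all tested genes, 7.92% were higher and 7.86% lower without overlap. Of 13 tested astrocyte markers none was higher and 3 were lower without overlap: the water channel Aqp4 (40.2, 49.2 and 49.7 CPM in control against 16.2, 15.4 and 16 CPM in Vhl cells, log2 -1.55 ± 0.18, adjusted p = 0.0945), the gap junction gene Gja1 (394, 486 and 433 CPM in control against 216, 167 and 165 CPM in Vhl cells, log2 -1.26 ± 0.19, adjusted p = 0.0945) and Hepacam (227, 193 and 183 CPM in control against 104, 143 and 157 CPM in Vhl cells). The summed level of the astrocyte list was 2989.6 to 3169.8 CPM in controls and 2247 to 3675 CPM in Vhl cells. Gfap, the defining astrocyte filament, was 35.7, 0.663 and 3.72 CPM in control against 7.14, 0.826 and 1.02 CPM in Vhl cells, highest in both A libraries. Of 12 tested neuron markers 3 were higher and 2 lower without overlap. Gad1, among the higher, was 3.73, 1.11 and 1.11 CPM in control against 7.65, 5.66 and 8.84 CPM in Vhl cells. Dlx2, described above, was also higher but had a control mean under 1 CPM. Ina, among the lower, was 76.9, 76.5 and 67.9 CPM in control against 54.1, 45.8 and 53.8 CPM in Vhl cells. Tubb3 was 46.2, 69.2 and 63.7 CPM in control against 49.8, 27.2 and 28.5 CPM in Vhl cells and the sum 2706 to 3365 and 2009.5 to 4314 CPM. The neural progenitor factor Sox1 was 39.9, 41.6 and 43.6 CPM in control against 21.7, 25.9 and 22.4 CPM in Vhl cells, lower in every Vhl library. Hes1 was 10.8, 14.3 and 11.9 CPM in control against 23, 23 and 30.4 CPM in Vhl cells. Schwann and neural crest markers share genes such as Sox10 and Erbb3 with the OPC lineage, and their sum was 745, 152 and 156 CPM in control against 455, 55.7 and 62.8 CPM in Vhl cells, high in the A libraries of both groups. Mesenchymal markers summed to 41.9 to 80.4 and 93.9 to 179 CPM, and endothelial markers to 4.59 to 6.52 and 6.35 to 15.8 CPM, where Flt1 and Kdr were the 2 tested. The part of these markers in the results above was not tested.

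Cell cycle genes were higher in part. All 20 tested genes of G2 and M phase had a positive log2 change, with a median of 0.79, and 7 were higher without overlap, beside 7.92% of all tested genes. The B-type cyclin Ccnb2 was 8.25, 7.57 and 5.09 CPM in control against 26.8, 19.6 and 18.5 CPM in Vhl cells (log2 1.63 ± 0.29, adjusted p = 0.137). The kinesin Kif23, needed for cell division, was 29.2, 17.8 and 16.8 CPM in control against 52.5, 35.8 and 52.3 CPM in Vhl cells. The proliferation marker Mki67 was 782, 264 and 275 CPM in control against 506, 556 and 1018 CPM in Vhl cells, with control A above Vhl A. Summed over the list, the level was 2229, 1049 and 1046 CPM in control against 2184, 1956 and 2582 CPM in Vhl cells, so control A was as high as the Vhl libraries. None of the list passed with all libraries. S phase genes showed less: 3 of 22 were higher without overlap, the median was 0.24 (or -0.23 without Vhl A), and Pcna was 106, 105 and 92.6 CPM in control against 232, 71.6 and 68.3 CPM in Vhl cells, high in Vhl A only.

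Genes that report signalling through the kinases MEK and ERK were highest in Vhl A. Of 21 tested, 6 were higher without overlap (7.92% of all tested genes were) and none lower. Ier3, among the 6, had a control mean under 1 CPM and passed the filter only through its Vhl libraries. The median of the list was 0.66, or 0.36 without Vhl A. It split into 1.19, 0.39 and 0.35 for Vhl A, B and C on the log2(CPM + 1) scale. The ERK phosphatase gene Dusp5 was 6.88, 4.20 and 3.91 CPM in control against 19.6, 14 and 14.1 CPM in Vhl cells (log2 1.67 ± 0.32, adjusted p = 0.166). Dusp6 was 74.1, 44 and 41.4 CPM in control against 225, 107 and 105 CPM in Vhl cells. The feedback inhibitor Spry1 was 62.9, 38 and 35.3 CPM in control against 135, 79.6 and 99.8 CPM in Vhl cells. Myc was 72.2, 74.4 and 65.7 CPM in control against 150.1, 94 and 171 CPM in Vhl cells. Several immediate early genes overlapped and were highest in Vhl A, but not all were: Jun is described below, and Fosb was as high in control A (111, 50.1 and 57.7 CPM in control against 111, 61.8 and 53.5 CPM in Vhl cells). Egr1 was 461, 335 and 328 CPM in control against 1245, 301 and 361 CPM in Vhl cells. Fos was 228, 123 and 113 CPM in control against 484, 104 and 108 CPM in Vhl cells. Ier2 was 45.8, 69.4 and 61.4 CPM in control against 190.2, 37.7 and 49.7 CPM in Vhl cells. The sum over the list was 2249, 1499 and 1446 CPM in control against 4129, 1825 and 1979 CPM in Vhl cells.

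Housekeeping sets differed between Vhl libraries more than between genotypes. None of 22 tested ribosomal protein genes and none of 31 nuclear genes of oxidative phosphorylation had groups that did not overlap. The ribosomal sum was 7666, 9951 and 9173 CPM in control against 16789.6, 8027 and 6388 CPM in Vhl cells. For nuclear oxidative phosphorylation it was 3611, 3606 and 3458 and 5615, 3347 and 2777 CPM, again high in Vhl A and low in Vhl C. Ndufa4, a subunit of the respiratory chain, was 107, 105 and 91.8 CPM in control against 224, 45.4 and 37.8 CPM in Vhl cells. Mitochondrially encoded transcripts summed to 49232, 47652 and 46473 CPM in control against 60300.5, 22552 and 51597 CPM in Vhl cells, with Vhl B lowest; mt-Co2 was 4334, 4966 and 4861 CPM in control against 4616, 2016 and 2834 CPM in Vhl cells. Of 24 tested cholesterol synthesis genes none was higher and 2 were lower without overlap, a share near the 7.86% of all tested genes. They were Hmgcs1 (2042, 2992 and 2877 CPM in control against 1401, 1746 and 1554 CPM in Vhl cells) and Cyp51 (348, 407 and 395 CPM in control against 267, 231 and 211 CPM in Vhl cells). Of 13 fatty acid synthesis genes 3 were lower, the desaturases Fads1 (1120.2, 939 and 988 CPM in control against 644, 713 and 740.4 CPM in Vhl cells) and Fads2, and the acyl-CoA synthetase Acsl3.

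**Figure D4:**
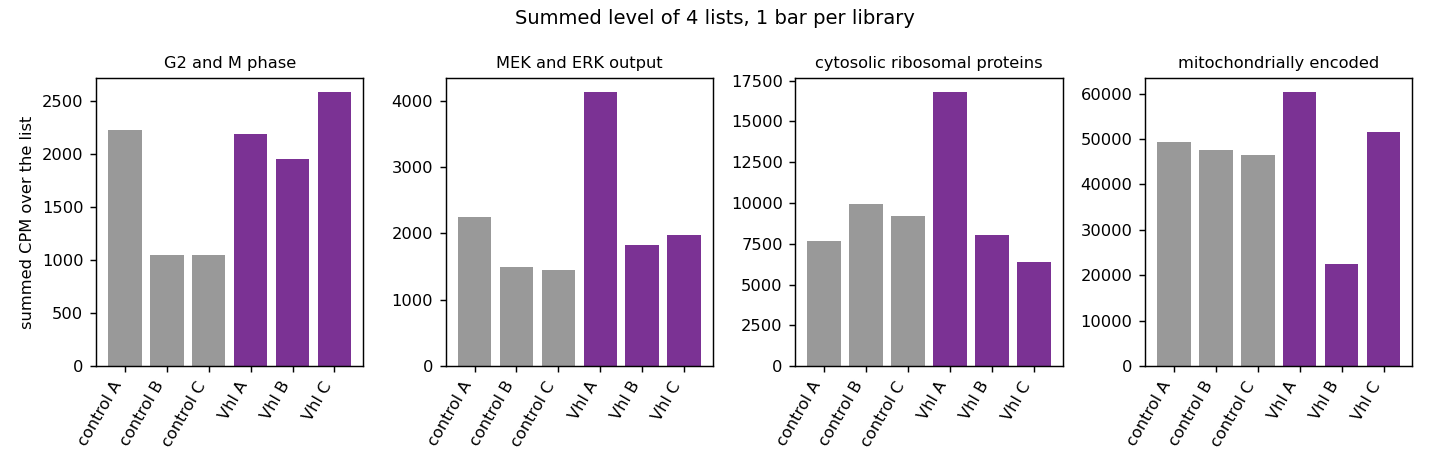
Bars give the summed CPM of 4 lists in each of the 6 libraries, on linear axes from 0, with controls in grey and Vhl libraries in purple. G2 and M phase genes are as high in control A as in the Vhl libraries, ERK output and ribosomal genes are highest in Vhl A, and mitochondrially encoded transcripts are lowest in Vhl B.

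Smaller lists gave few differences. Beside them, 7.92% of all tested genes were higher and 7.86% lower without overlap. The unfolded protein and integrated stress list had 1 of 17 genes higher and 2 lower without overlap; Hspa5, a chaperone of the endoplasmic reticulum, was 683, 604 and 618 CPM in control against 816, 332 and 312 CPM in Vhl cells. Of 16 p53 targets 1 was higher (Plk2, 76.1, 47.9 and 47.5 CPM in control against 126, 97.7 and 76.4 CPM in Vhl cells), and of 14 Notch targets 1 (Hes1). Apcdd1, an inhibitor of Wnt signalling that Wnt induces, was 119, 283 and 276 CPM in control against 71.6, 60 and 65.4 CPM in Vhl cells (log2 -1.78 ± 0.34, adjusted p = 0.16). Axin2, a target of the same pathway, was 9.90, 10.9 and 15.6 CPM in control against 18.8, 25.1 and 29.1 CPM in Vhl cells. Of 9 tested interferon and antigen presentation genes 2 were higher, H2-K1 (3.66, 2.27 and 2.41 CPM in control against 7.88, 39 and 35 CPM in Vhl cells) and H2-D1 (8.32, 7.85 and 7.18 CPM in control against 9.60, 14.5 and 13 CPM in Vhl cells). 22.8% and 26.9% of their words are shared with other genes. Of 14 immediate early and heat shock genes 1 was higher (Jun, 289, 195 and 178 CPM in control against 389, 350.4 and 427 CPM in Vhl cells) and 1 lower (Hsph1, 196, 241 and 232 CPM in control against 166, 142 and 133 CPM in Vhl cells). All 3 pluripotency genes and 6 of 7 mesenchymal genes tested overlapped, and the mesenchymal factor Prrx1 was 4.66, 3.98 and 2.94 CPM in control against 1.44, 1.53 and 2.86 CPM in Vhl cells.

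Leaving out each library was planned, and of the single libraries Vhl A changed edgeR's count of genes most when left out. Without it 439 genes changed, 308 rising (2.27% of 13560) and 131 falling (0.966%). Of the glycolysis list 13 of 20 then rose and of the HIF targets 23 of 31, and none fell. Among them were Vegfa (6.22 on the log2 scale, adjusted p = 0.000823 in edgeR), Bnip3 (4.85, adjusted p = 0.000408) and Slc2a1 (2.85, adjusted p = 0.000831). Pdk1, from the list of pyruvate dehydrogenase control, rose as well (4.44, adjusted p = 0.000823). Narf and Rora, whose Vhl A level was within or below the control range, were among the 23. Gbe1 and H2-K1 also rose. Aqp4 (-1.56, adjusted p = 0.013), Gja1, Pygb (-1.23, adjusted p = 0.0159), Tmem132b, Padi2, Mc5r and Abca1 fell. Leaving out both A libraries gave 606 genes, 395 rising (2.91% of 13561) and 211 falling (1.56%), of which 341 were shared with the 439. That is 77.7% of the first list and 56.3% of the second. Because Vhl A was weak in HIF targets, a fit without it is not separate evidence for those genes. Leaving out Vhl C left 3 genes changed, and leaving out Vhl B or any control left none.

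The experiment with DMSO held the same genotypes in libraries with a smaller spread (common dispersion of edgeR 0.0161, against 0.144 in untreated cells). There 1851 genes rose (13.8% of 13460) and 2492 fell (18.5%). With total count scaling 2347 rose and 1788 fell there, and none of the list counts given below for DMSO moved by more than 1. The tables were normalised separately and share no library, and no test was run across them. Of the 31 tested HIF targets 28 rose in DMSO and 1, Ano6, fell; of 19 glycolysis genes 16 rose. Mif was 244, 238 and 243 CPM in DMSO controls and 1060.2, 1116 and 1055 CPM in DMSO Vhl cells (log2 2.16, adjusted p = 1.36e-13), and Fam162a 55.9, 54.3 and 53.1 and 401, 396 and 415 CPM (log2 2.89). Bnip3 was 18.5, 19.3 and 21.6 and 620.4, 653 and 680.4 CPM, even across the 3 Vhl libraries, where untreated Vhl A had stood apart. Vegfa was 7.64, 7.78 and 5.94 and 112, 100.3 and 95.6 CPM, a log2 change of 3.84 beside 5.69 in untreated cells. Gapdh changed by log2 1.51 beside 2.62, and Tpi1 by 2.33 beside 3.56. Dlx3 was 0, 0.134 and 0.0716 and 18, 16.6 and 16.1 CPM and Ascl2 0.382, 0.067 and 0.215 and 7.90, 8.27 and 8.85 CPM. Sox10 fell in DMSO (log2 -1.53, adjusted p = 2.4e-07), as did Luzp2 (-2.49), Gjc3 (-1.35) and Erbb3 (-1.87). Pdk1 has no DMSO value here.

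Over all tested genes, members of the lists included, those higher in untreated Vhl cells had the same direction in DMSO more often than lower ones did. This is a description without a test. Of 390 genes higher without overlap by at least 2-fold, 368 were tested in DMSO; 81.2% had the same sign and 57.6% rose there. Of 174 lower ones, 153 were tested; 56.9% had the same sign and 20.9% fell. Over all 12913 genes tested in both, 54.2% had the same sign and 19.9% were called in the same direction. For the genes that rose without Vhl A these shares were 90.0% and 79.6%. For those that fell they were 72.6% and 52.4%, with 15.3% called in the opposite direction. These 2 sets were called by edgeR after Vhl A was left out because of its values. Their shares are therefore not comparable with those of the 390 and 174 genes. Among named falls, Aqp4 was not lower in DMSO (log2 0.37, adjusted p = 0.103) and Pygb was log2 -0.08 (adjusted p = 0.0769), whereas Gja1 fell there too (-0.79, adjusted p = 9.66e-08). Cell cycle genes ran the other way: of 19 G2 and M phase genes tested in DMSO, none rose and 16 fell, with a median log2 change of -0.50 beside 0.79 in untreated cells. Of 31 nuclear oxidative phosphorylation genes 17 fell in DMSO and 1 rose, and of 13 mitochondrially encoded genes 11 fell.

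**Figure D5:**
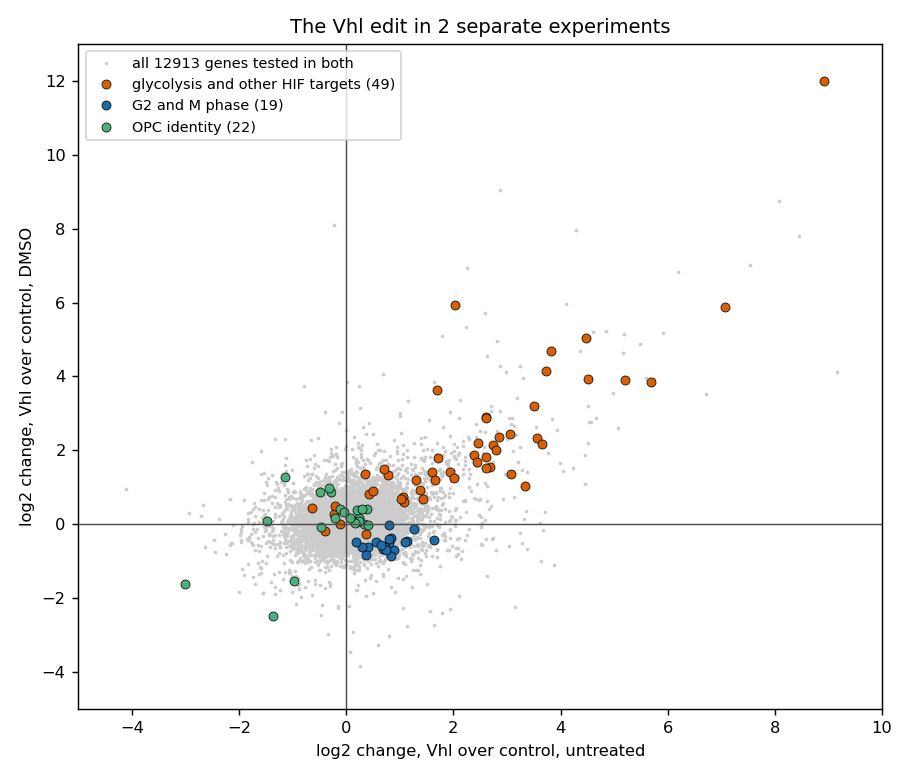
Each point is 1 of 12913 genes tested in both experiments (2 lie outside the axes); the axes give the log2 change of Vhl over control in untreated cells (horizontal) and in DMSO (vertical), from separate fits. Glycolysis and other HIF target genes (orange) lie mostly in the upper right, and G2 and M phase genes (blue) right of 0 and below 0.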

How the data were processed

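RNA was sequenced from 18 libraries of mouse OPCs. The 6 untreated libraries are the subject here and the 6 DMSO libraries are set beside them. Per the submitters' processing notes, Salmon 0.14.1 and the mouse build mm10 were used, and the authors deposited estimated counts per gene in 2 tables of 54279 rows. The files are named as TPM, but their column totals differ between libraries (14594148 to 21160250 untreated, 12391077 to 16349676 in the drug experiment), as estimated counts do. The library kit, strandedness, read length and gene annotation were not given in the sources used here. No comparison used the mean columns that were deposited.

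Values were rounded to whole numbers, scaled with TMM and tested with edgeR 4.0.16 (quasi-likelihood) in R 4.3.3, where the mean over libraries reached 1 CPM (13569 untreated, 13460 in the drug table). A gene under 1 CPM in controls passed this filter only through its Vhl libraries, so its rise is not separate support. The Benjamini-Hochberg adjustment ran over every tested gene, with a threshold of 0.05. "Higher" or "lower without overlap" means that all 3 Vhl libraries lie on 1 side of all 3 controls. Untreated groups were fitted alone. The DMSO contrast came from a fit of the 12 drug libraries. Log2 changes carry their standard error, and differences between single libraries are on the log2(CPM + 1) scale. Alternatives were DESeq2 1.42.0, limma 3.58.1 on log2(CPM + 1) or log2(CPM + 0.1), total count scaling, other filters, the library letter as a replicate block, and leaving out libraries. The edgeR fit was tested on simulated data.

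The cells compared and all 31 gene lists were chosen with earlier results of these data known. Genes are named if they were called, were among the 10 largest changes in a direction without overlap and at 5 CPM or more, had up to 4 of the smallest p-values of a list, were on a short list of HIF and lineage genes, or were among the 6 highest or lowest in both A libraries against B and C. Other genes named were chosen after their values were seen, as further members of the lists. Positions are from GENCODE M21 (GRCm38), which names 98.37% of rows. A date stands in place of a name in 26 rows, which are not named. Promoter sequences are from RefSeq (GRCm38.p6). Shared sequence was counted as words of 31 bases in GENCODE M21 transcripts. Floors and intervals cover counting error only. Figures were drawn with matplotlib.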

Additional observations from a re-analysis of the deposited data

Results flagged for a closer look

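Among the genes named by rule, 5 differed in direction between the untreated and the DMSO experiment, with groups that did not overlap in either. Genes chosen after their values were seen, such as Gabbr2 and Csmd1 described below, are not counted here although some also differed in direction. The difference between the experiments was not tested, since the tables were normalised separately. Pdgfra, the PDGF receptor of OPCs, was lower in every untreated Vhl library (log2 -0.48) and higher in every DMSO Vhl library (log2 0.87). For 4 genes of G2 and M phase the untreated change was upward and the DMSO change downward. Ccnb2 was at log2 1.63 untreated and -0.43 in DMSO. The kinesin Kif23 was at 1.14 and -0.47. Hmmr, a spindle protein gene, was at 0.90 and -0.70. The spindle assembly factor Tpx2 was at 0.80 and -0.50. None of the 5 passed the untreated test with all libraries, and all 5 passed it in DMSO.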

How the results depend on the processing

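With all 6 untreated libraries edgeR called 2 genes. The count was the same with total count scaling and with a minimum of 5 CPM, and it was 4 with limma at either pseudocount. It was 355 with DESeq2 (246 rose, 109 fell) and 143 without a filter on low counts (112 rose, 31 fell). Leaving out 1 library gave 0 to 439, the highest without Vhl A. Without both A libraries, which leaves 2 against 2, it was 606. Of the 439 genes, 208 were also called by DESeq2 with all libraries, 47.4% of the 439 and 58.6% of the 355. The cause of these differences was not tested. Over 10119 genes, the 2 libraries of a letter did not deviate from their group means together. The correlations of deviations were -0.129 for A, -0.112 for B and -0.00638 for C. Whether libraries of a letter shared a culture or preparation was not given and was not tested. With the letter as a replicate block the count was 0, and with the block and total count scaling it was also 0. In DMSO the alternatives gave 3625 to 4417 genes beside 4343. Total count scaling there gave 2347 rising and 1788 falling, beside 1851 and 2492. The median log2 change over all tested untreated genes was 0.0467 with TMM, 0.0345 with total scaling and 0.0419 with DESeq2. No called change reversed direction. The sign of a list's median differed from the reported one for 9 of 30 lists without Vhl A, 7 without both A libraries, 5 without control A, at most 3 in each other alternative, and none under total scaling or DESeq2. Ribosomal protein genes, for example, had a median of 0.22 with all libraries and -0.35 without Vhl A. Depth limits genes near 0 in controls, whose changes rest on few counts.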

Other observations

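Some genes on none of the lists were clearly apart from control in all 3 Vhl libraries, Vhl A included. They were chosen after their values were seen, and none passed with all libraries (adjusted p = 0.0945 in edgeR's quasi-likelihood test for each gene below unless given). Values are for libraries A, B and C in that order. The metallothioneins, which bind zinc and copper, were higher. Mt1 was 42.3, 47 and 41.3 CPM in control against 198, 182 and 357 CPM in Vhl cells. Mt2 was 29.8, 22.5 and 21.5 CPM in control against 73.6, 99.3 and 91.8 CPM in Vhl cells. Both also rose in DMSO (log2 2.52 for Mt1 and 1.97 for Mt2). The antigen presentation gene H2-Ab1 was 1.29, 0.94 and 0.783 CPM in control against 6.12, 9.28 and 12.1 CPM in Vhl cells, and it rose in DMSO too (log2 3.42). Eif4ebp1, which encodes a brake on translation, was 15.6, 14.2 and 13.6 CPM in control against 41.1, 32.4 and 36.2 CPM in Vhl cells. Hprt, a gene of purine salvage often used as a reference, was 14.6, 13.7 and 14.3 CPM in control against 38.6, 45.6 and 31.7 CPM in Vhl cells. Both Hprt and Gapdh, another common reference gene, were thus higher in every Vhl library. The peptide hormone gene Apln was 14.9, 8.68 and 7.50 CPM in control against 42, 72.4 and 64.6 CPM in Vhl cells, with no call in DMSO (log2 0.03, adjusted p = 0.74). Stc1, a secreted glycoprotein related to Stc2, was 2.87, 2.71 and 2.94 CPM in control against 9.83, 55.1 and 76.8 CPM in Vhl cells (adjusted p = 0.137). Hilpda, a lipid droplet protein gene, was 4.02, 5.64 and 5.29 CPM in control against 11.9, 19.7 and 18.7 CPM in Vhl cells (adjusted p = 0.137). In Apln, Stc1 and Hilpda Vhl A was the lowest of the Vhl libraries.

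Of lower genes chosen in the same way, the endothelin receptor gene Ednrb was 707, 883 and 822 CPM in control against 333, 239.9 and 204 CPM in Vhl cells, and its change in DMSO was log2 0.05 (adjusted p = 0.752, edgeR). Gabbr2, a subunit of the GABA-B receptor, was 232, 262 and 258 CPM in control against 83, 49.1 and 78.9 CPM in Vhl cells, and in DMSO it rose (log2 0.29). Igsf11, an adhesion gene, was 94.1, 107 and 103 CPM in control against 39, 24.4 and 29.3 CPM in Vhl cells, and it fell in DMSO as well (log2 -0.71). Csmd1 was 44.2, 44.6 and 50.2 CPM in control against 17.5, 20.1 and 19.5 CPM in Vhl cells, and in DMSO it rose (log2 1.10). The differences between the experiments were not tested.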
